A study of Mus musculus with 8 samples.

Results

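The proteasome is the chamber in which cells cut up proteins tagged with ubiquitin. Its core is a stack of rings, alpha rings outside and beta rings inside, and 3 beta subunits (the products of Psmb5, Psmb6 and Psmb7) carry the cutting sites. The 19S cap sits on the core: its base holds a ring of ATPases (Psmc genes) that unfold and thread the substrate, and its lid holds the enzyme Psmd14 that removes the ubiquitin chain. Other caps (the PA28 proteins of Psme1, Psme2 and Psme3, and PA200 of Psme4), an inhibitor (Psmf1) and assembly chaperones (Psmg1 to Psmg4 for the core, Psmd5, Psmd9 and Psmd10 for the base) bind the same machine. In T cells and under interferon the cutting subunits are exchanged for Psmb8, Psmb9 and Psmb10, the immunoproteasome, which shapes the peptides shown on MHC class I.

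The genes described here are those of the count table whose symbol begins with Psma to Psmg, apart from Psmb8, Psmb9 and Psmb10: 47 of 24976 symbols. They were chosen by name and not by any measured value. Of the 47, 16 encode core subunits (8 alpha and 8 beta), 17 the 19S cap (9 in the base and 8 in the lid), 6 the other caps and their inhibitor, and 7 assembly chaperones. Psmc3ip matches the name but is a cofactor of meiotic recombination and no proteasome gene. It forms a class of its own but is within the 47 and 46 of the counts below. Of the 47, 46 had enough counts to be tested. Psma8, the alpha subunit of sperm cells, did not: it had 0 to 3 counts in each library.

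Bulk RNA was sequenced from mouse CD8+ T cells that were naive when isolated and were then stimulated for 24 or 48 h with anti-CD3 at 2 μg/ml, anti-CD28 at 1 μg/ml and IL2 at 10 ng/ml. The dKO libraries come from mice with the Cd8Cre transgene, which deletes in CD8 T cells, and loxP-flanked alleles of both Nr4a1 and Nr4a2, nuclear receptors induced by antigen receptor signals. The WT libraries come from wild-type littermates, and nothing says that these carry the Cre. Each of the 4 groups (WT 24 h, dKO 24 h, WT 48 h, dKO 48 h) has 2 libraries. The labels do not say whether 2 libraries of a group came from separate mice or cultures, so p-values reflect the spread of these libraries alone, which may be technical. In bulk RNA, fewer cells making an RNA and less of it per cell cannot be told apart.

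Total counts ran from 5000952 to 21686236 per library, and the deepest was WT 48 h replicate 2. Cd8a stood at 447 to 991 counts per 1000000 counts (CPM). The 11 markers of other cell types in the table summed to 1.87 to 4.64 CPM. Of these, Foxp3 had 9 to 55 counts per library, Csf1r 0 to 11 and Cd4 0 to 2. Lyz2, Ncr1, Hbb-bs and Hba-a1 were at 0 in all libraries. The targeted genes were not low in the libraries labelled dKO. Nr4a1 stood at 542 and 322 CPM at 24 h in WT against 589 and 545 in dKO, and at 735 and 682 against 613 and 651 at 48 h. Nr4a2 stood at 61.7 and 57.5 CPM in WT against 157 and 146 in dKO at 24 h, and at 20.5 and 29.1 against 72.9 and 75.2 at 48 h. Counts outside the deleted exons do not check a deletion, and where the counted reads lie is not given, so the dKO label was taken as it stands. Xist, the RNA of the inactive X, was at 323 to 805 CPM in every WT library and at 0.719 to 1.8 in every dKO library. The sum of 4 Y-linked genes was 1.28 to 1.75 CPM in WT and 131 to 175 in dKO. Genotype therefore cannot be told apart from the sex of the mice in any genotype comparison here. Of the 47 genes, 1 is on X (Psmd10) and 0 are on Y.

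The genes lie on 16 chromosomes, 10 of them on chromosome 11. For 39 of the 47, RefSeq's table (GRCm38.p6) holds the 300 bases from 250 before to 50 after the gene's start. Parts of these windows are shown for 2 of 8 motifs searched, picked with the counts known; no difference between core and cap genes was tested. The letters CCGGAAG, the recognition sequence of many ETS factors, were present on either strand in 15 of the 39 (38.5%), against 9.93% of all 27025 genes in that table and 20.9% of the 9502 of them that were tested. Psmc3ip is among the 15. The letters were in 9 of 14 cap genes and in 1 of 12 core genes. The letters CCAAT, bound by NF-Y, were in 7 of 12 core genes (Psmb11 among them) and 4 of 14 cap genes, and in 35.9% of the 39 against 43.3% of the tested genes. The cap examples follow, 5′ to 3′ on the gene's own strand with CCGGAAG or its complement in capitals. All bases shown lie before the annotated start.
Psmc2 (chr5:21785164-21785224, plus strand): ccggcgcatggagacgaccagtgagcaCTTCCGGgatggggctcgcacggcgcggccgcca
Psmc6 (chr14:45329697-45329757, plus strand): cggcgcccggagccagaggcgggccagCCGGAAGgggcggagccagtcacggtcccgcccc
Psmd2 (chr16:20651599-20651651, plus strand): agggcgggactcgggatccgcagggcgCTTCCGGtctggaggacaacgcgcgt
Psmd4 (chr3:95042706-95042766, minus strand): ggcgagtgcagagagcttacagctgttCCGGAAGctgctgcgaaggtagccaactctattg
Psmd11 (chr11:80428577-80428614, plus strand): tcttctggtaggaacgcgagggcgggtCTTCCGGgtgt

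The core examples, with CCAAT in capitals, are all alpha genes.
Psma2 (chr13:14613160-14613220, plus strand): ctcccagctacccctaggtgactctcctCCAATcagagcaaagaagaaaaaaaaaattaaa
Psma3 (chr12:70974456-70974516, plus strand): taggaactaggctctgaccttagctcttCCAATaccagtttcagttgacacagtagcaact
Psma7 (chr2:180042628-180042688, minus strand): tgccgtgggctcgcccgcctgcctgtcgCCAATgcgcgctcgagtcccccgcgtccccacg

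Psmc6 and Psmd2 share the ETS letters. Their genotype differences at 48 h, given below, had opposite signs, and neither passed the test. A relation of the motifs to the genotype differences was not tested. The antioxidant response element core TGACNNNGC, bound by the NFE2L1 and NFE2L2 factors known to drive proteasome genes, was in 15.4% of the 39 windows and 16.6% of those of tested genes. The shares for GGGCGG (Sp1) were 56.4% and 66.1% (5 of 12 core and 10 of 14 cap genes), for TATAAA 7.69% and 9.01%, and for the E box CACGTG 7.69% and 12%. For the NRF1 palindrome they were 5.13% and 2.34%, and for the YY1 motif 2.56% and 1.92%. Each motif was searched on both strands and counted by itself, and matches can overlap, as those of CCGGAAG and the YY1 motif do where they share AAG. A match is a run of letters, not a bound site, and no match says only that these letters are not in this window.

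Proteasome genes were abundant RNAs. Together the 47 took 0.777% and 0.895% of all counts (WT) and 0.927% and 0.868% (dKO) at 24 h, and 0.676% and 0.519% (WT) and 0.920% and 0.951% (dKO) at 48 h. WT 48 h replicate 2 had the lowest share and dKO 48 h replicate 2 the highest. In WT at 24 h, CPM per kb of exon had a median of 110 over the 14 standard core genes (61.5 to 275), of 41.3 over the 17 cap genes (17.6 to 102), of 71.6 over the 6 other cap genes (5.71 to 191) and of 23.6 over the 7 chaperones (5.56 to 71.1). Per kb, Psmb5 was the highest of the 46 at 275 ± 11.9 (SD, n = 2) and Psma5 next at 255.3 ± 7.14, so these neighbours differed by little more than their spread. Psmb11, the beta subunit of thymic cortex, was the lowest at 0.434 ± 0.00771. The order of classes depends on the exon lengths of the annotation, and the counts may not cover all exons.

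**Figure D1:**
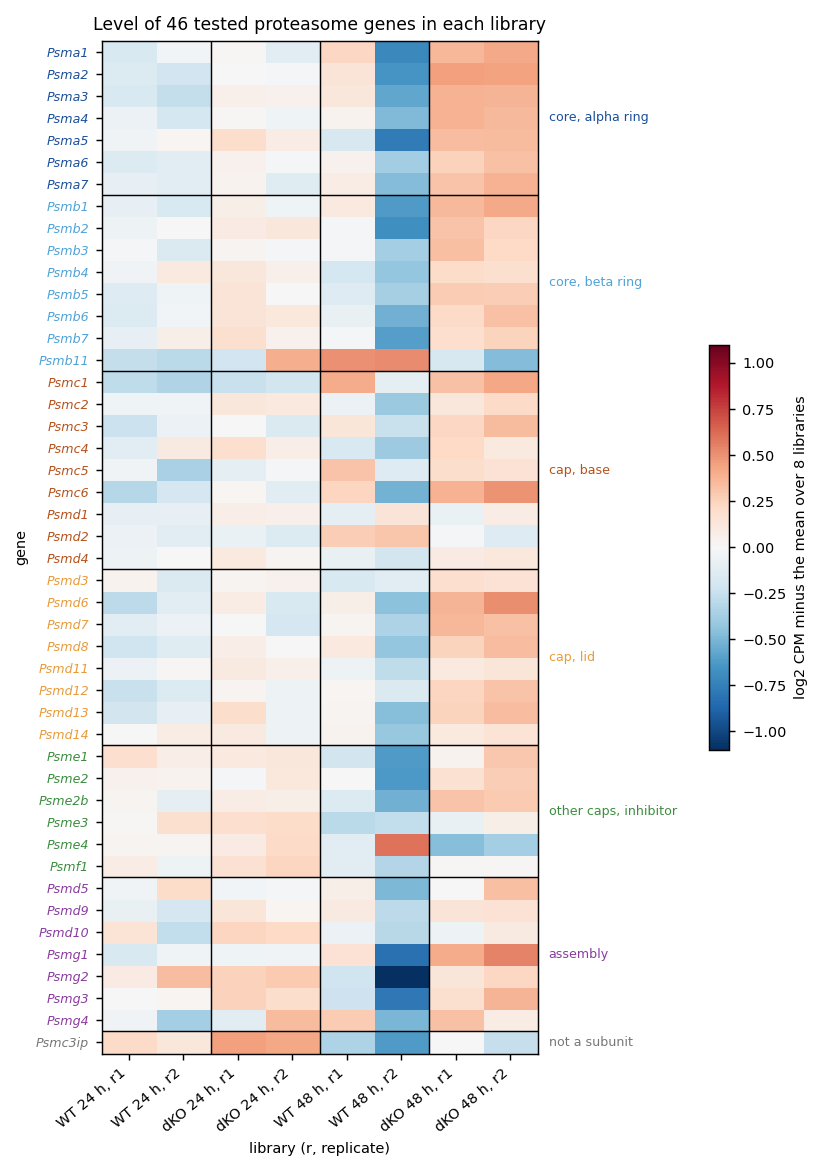
Level of the 46 tested genes (rows, by class) in the 8 libraries (columns), as log2 CPM minus the gene's mean over the libraries; red is above and blue below that mean. WT 48 h replicate 2 is the bluest column and holds the lowest value of 37 of the 46 genes, while the dKO 48 h columns are red for most of the core and cap.

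WT 48 h replicate 2 stood apart for these genes, and this bears on every comparison that uses it. It was the lowest of the 8 libraries for 37 of the 46 genes, against 24.5% of all tested genes. Between the replicates of WT at 48 h, replicate 2 was lower for 40 of the 46, with a median log2 difference of -0.44 (all genes -0.02). In the other groups this median was 0.03, -0.04 and 0.05. WT 48 h replicate 2 was low against replicate 1 for shorter genes in general, with a median of -0.29 over 3103 genes of 555 to 2804 exon bases, and 0.01 over 6740 genes of 2805 to 8382. Among the 46 it was -0.44 in the shorter 23 and -0.46 in the longer 23. Of the shorter 23, 23 were lower in replicate 2, and of the longer 23, 17 were. This difference had a Pearson correlation with log2 exon length of 0.40 over the 46 and 0.39 over 11818 tested genes. The Spearman correlations were 0.27 and 0.43. For the 48 h genotype differences, values without WT 48 h replicate 2 are given for each class and each gene described, and its part in them was otherwise not tested.

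At 24 h no proteasome gene was called different between the genotype labels. With edgeR's quasi-likelihood test and an adjusted p below 0.05 over 12742 genes, 0 of 46 were called higher in dKO and 0 lower, where 0.361% and 0.0706% of all tested genes were called. At an unadjusted p below 0.05 the count was also 0, and DESeq2 called 0. The differences were small and mostly of one sign: 42 of 46 were above 0, with a median log2 fold change of 0.13 (all genes 0.01) and a range of -0.11 to 0.36. The median was 0.13 over the 14 standard core genes, 0.13 over the cap and 0.21 over the 7 chaperones. Both dKO libraries were above both WT libraries for 27 of 46 genes (58.7%, against 24.3% of all tested genes) and below both for 0 (20.6% of all). Psma3, an alpha subunit, had the largest difference of the 14 standard core genes (0.26, adjusted p 0.888): 301.6 and 282.3 CPM in WT against 351.0 and 350.0 in dKO.

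At 48 h 3 proteasome genes were called higher in dKO and 0 lower, against a background of 3.19% of all tested genes called higher and 8.04% called lower. They were 1 core subunit (Psma5), 1 core chaperone (Psmg3) and 1 copy of a PA28 gene (Psme2b), each 1.56- to 1.73-fold higher. The rest of the complex leaned the same way without passing the test. In all, 42 of 46 differences were above 0, with a median log2 fold change of 0.46 where the median of all genes was -0.03. At an unadjusted p below 0.05, 28 were higher and 3 lower, where 14% and 19.1% of all tested genes were. Both dKO libraries were above both WT libraries for 38 of 46 genes (82.6%, against 28.3% of all tested genes), and below both for 3 (Psmb11, Psmd2 and Psme4; 6.52% against 28.6%).

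**Figure D2:**
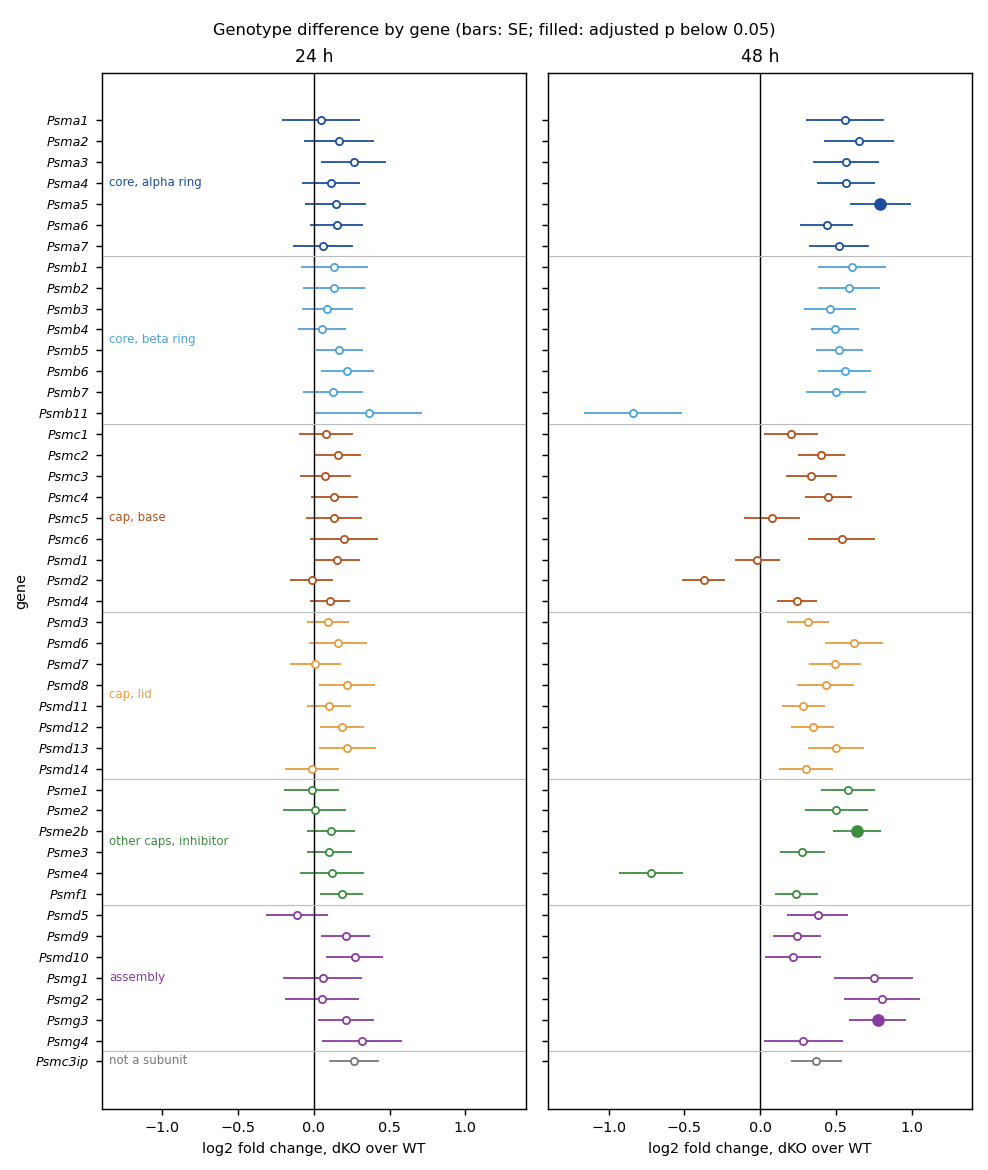
Log2 fold change of dKO over WT (horizontal axis) for each of the 46 genes at 24 h (left) and 48 h (right), by class; bars are standard errors and filled points have an adjusted p below 0.05 in edgeR. At 24 h all points lie between -0.11 and 0.36 and none is filled; at 48 h the 14 standard core genes lie between 0.44 and 0.79, and Psmb11, Psmd2 and Psme4 lie to the left of 0.

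Psma5, a subunit of the alpha ring (chr3:108256926-108279974, plus strand, mm10), stood at 330.6 and 344.0 CPM in WT at 24 h and 388.2 and 357.6 in dKO. At 48 h it stood at 299.2 and 198.5 CPM in WT against 428.3 and 432.2 in dKO. The groups did not overlap at either time, and the dKO 48 h libraries were the highest of the 8. The log2 fold change at 48 h was 0.79 ± 0.201 (SE), 1.73-fold, with an adjusted p of 0.0354 in edgeR. The exons of Psma5 share 60 bases with 1700010K24Rik on the other strand, and a rule on strand is not given in the sources used here.

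Psmg3, a chaperone that helps the alpha ring form (chr5:139823592-139826885, minus strand), stood at 67.73 and 69.03 CPM in WT and 81.06 and 77.51 in dKO at 24 h. At 48 h it stood at 58.09 and 39.39 CPM in WT against 76.81 and 88.09 in dKO. Both WT 48 h libraries were below both WT 24 h libraries, while the dKO libraries of the 2 times overlapped. The log2 fold change at 48 h was 0.77 ± 0.186 (SE, adjusted p 0.0295, edgeR). Its exons overlap those of Gm26938 on the same strand.

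Psme2b (chr11:48945354-48946190, minus strand) is a 1-exon copy of Psme2, which encodes the beta subunit of PA28, the cap that opens the core without ATP. It stood at 49.18 and 44.94 CPM in WT and 51.08 and 50.56 in dKO at 24 h, and at 43.57 and 33.49 against 59.99 and 58.85 at 48 h. The log2 fold change at 48 h was 0.64 ± 0.158 (SE, adjusted p 0.0323, edgeR). The transcripts of Psme2b and Psme2 align over 794 bases and are identical at 789 (99.4%), so how counting split reads between them is uncertain, and Psme2b lies within 9930111J21Rik1 on the same strand. The ratio of Psme2b to Psme2 was 0.133 to 0.163 in the 8 libraries, and Psme2 itself did not pass, at 328.5 and 210.9 CPM in WT against 367.5 and 395.3 in dKO at 48 h (a difference of 0.22 without WT 48 h replicate 2).

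The 14 standard core genes shared 1 sign at 48 h. All 14 differences were above 0, between 0.44 and 0.79 with a median of 0.56, and 1 of the 14 (Psma5) passed the test. Their summed level was 3837 and 3875 CPM in WT and 4339 and 4119 in dKO at 24 h, then 4170 and 2821 in WT against 5144 and 5177 in dKO at 48 h. The dKO 48 h libraries were above all others, and the WT 48 h libraries fell on both sides of the 24 h values. Psma4, an alpha subunit whose exons overlap AY074887 on the other strand, went from 288.8 and 264.8 CPM (WT) and 305.5 and 293.3 (dKO) at 24 h to 311.3 and 216.7 (WT) and 394.3 and 386.4 (dKO) at 48 h. Psmb1, a beta subunit without a cutting site, stood at 312.5 and 294.9 (WT) and 346.5 and 321.0 (dKO) at 24 h and at 356.9 and 215.3 (WT) and 424.4 and 443.5 (dKO) at 48 h. Psmb6, which carries the site that cuts after acidic residues, stood at 191.1 and 207.4 (WT) and 234.4 and 230.1 (dKO) at 24 h and at 200.2 and 147.5 (WT) and 246.2 and 265.2 (dKO) at 48 h. Its log2 fold change of 0.56 ± 0.175 (SE) at 48 h had an adjusted p of 0.0667 in edgeR, the 0.60 of Psmb1 one of 0.0997 and the 0.57 of Psma4 one of 0.0797. These 3 differences were 0.36, 0.29 and 0.34 without WT 48 h replicate 2.

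The ratio of beta to alpha genes lay between 0.749 and 0.870. In dKO it was lower in both 48 h libraries than in both 24 h libraries, and this was not tested. The summed CPM of the 7 beta genes over that of the 7 alpha genes was 0.837 and 0.870 (WT) and 0.844 and 0.848 (dKO) at 24 h, and 0.749 and 0.857 (WT) and 0.766 and 0.756 (dKO) at 48 h. The 3 lowest values were 48 h libraries, and WT 48 h replicate 2 was not among them.

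Psmb11 differed from the rest of the core in level and in sign. It had 14 to 69 counts per library, and stood at 2.108 and 2.056 CPM (WT) and 2.188 and 3.346 (dKO) at 24 h, and at 3.588 and 3.634 (WT) and 2.233 and 1.819 (dKO) at 48 h. The WT 48 h libraries were the highest. The log2 fold change of dKO over WT at 48 h was -0.84 ± 0.324 (SE) with an adjusted p of 0.11 in edgeR, so it did not pass, and it was -0.82 without WT 48 h replicate 2.

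**Figure D3:**
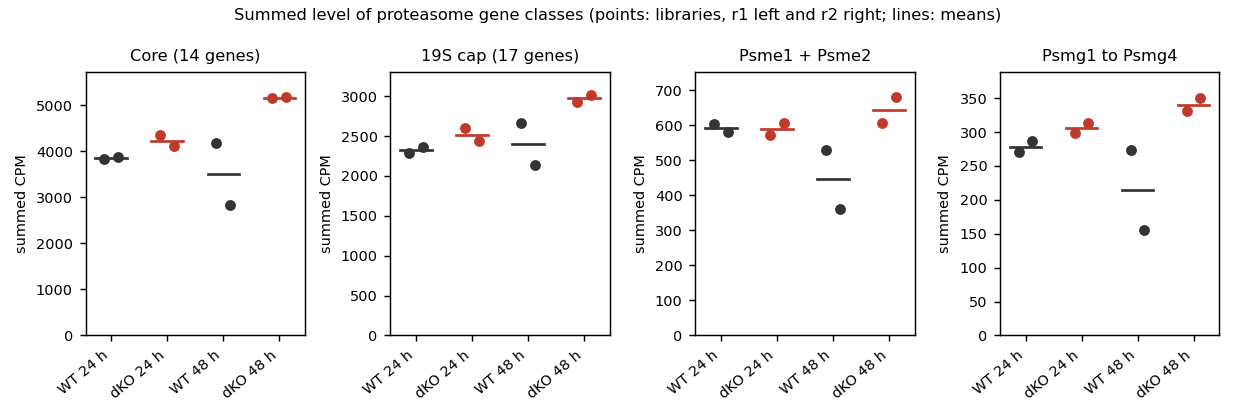
Summed TMM-scaled CPM of 4 sets of genes in each library (vertical axes start at 0; black, WT; red, dKO; lines, group means). For the core, dKO at 48 h lies at 5144 and 5177 CPM and the WT 48 h libraries at 4170 and 2821; both dKO 48 h libraries are also the highest for the cap and the Psmg chaperones.

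The 17 cap genes differed less than the core at 48 h, with a median log2 fold change of 0.34, 15 of 17 above 0 and 0 called by edgeR (9 higher and 1 lower at an unadjusted p below 0.05; DESeq2 called 1, Psmd6). The median was 0.19, with 14 of 17 above 0, without WT 48 h replicate 2. Their sum was 2294 and 2366 CPM in WT and 2598 and 2435 in dKO at 24 h, and 2666 and 2144 in WT against 2928 and 3017 in dKO at 48 h. The sum of cap over core was 0.569 to 0.639 in 7 libraries and 0.760 in WT 48 h replicate 2. The 9 base genes had a median of 0.25, and of 0.17 without WT 48 h replicate 2. Within the base, the 6 ATPases had differences between 0.08 and 0.54. Without WT 48 h replicate 2 these lay between -0.129 and 0.345, with 4 of 6 above 0. Psmc4, one of them, stood at 131.9 and 153.5 CPM (WT) and 162.7 and 150.4 (dKO) at 24 h and at 127.1 and 108.4 (WT) and 166.7 and 154.5 (dKO) at 48 h, a log2 fold change of 0.45 ± 0.155 (SE, adjusted p 0.0844, edgeR). Psmc6, another, had 0.54 with an adjusted p of 0.128. These became 0.35 and 0.21 without WT 48 h replicate 2.

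The 3 scaffold and receptor genes of the base differed in sign. Psmd1, the large scaffold that binds ubiquitin receptors, had the narrowest range of the 46 genes: 128.0 and 128.4 CPM in WT and 143.8 and 141.6 in dKO at 24 h, then 126.3 and 150.7 in WT and 129.7 and 144.2 in dKO at 48 h. Its log2 fold change at 48 h was -0.02 ± 0.148 (SE, adjusted p 0.943, edgeR). Psmd2, the other large scaffold, stood at 168.2 and 161.0 (WT) and 167.4 and 158.4 (dKO) at 24 h and at 212.4 and 217.1 (WT) against 172.8 and 158.9 (dKO) at 48 h. Both WT 48 h libraries were above all others, and replicate 2 was not low here. The difference of -0.37 ± 0.14 (SE) had an adjusted p of 0.103 in edgeR. Psmd4, a ubiquitin receptor, had a difference of 0.25. Their differences were 0.13, -0.35 and 0.19 without WT 48 h replicate 2.

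The 8 lid genes were all above 0 at 48 h, with a median of 0.39, which was 0.27 without WT 48 h replicate 2. Psmd6, a structural lid subunit, stood at 135.6 and 153.5 CPM (WT) and 175.3 and 147.6 (dKO) at 24 h and at 173.2 and 121.7 (WT) and 215.1 and 236.1 (dKO) at 48 h, a log2 fold change of 0.62 ± 0.193 (SE, adjusted p 0.0668, edgeR). Psmd7, the partner of the deubiquitinase, stood at 226.1 and 235.6 (WT) and 246.9 and 217.7 (dKO) at 24 h and at 252.0 and 194.7 (WT) and 318.1 and 309.2 (dKO) at 48 h. Psmd14, the deubiquitinase itself, stood at 190.0 and 201.8 (WT) and 204.0 and 184.0 (dKO) at 24 h and at 196.1 and 143.0 (WT) and 205.7 and 211.3 (dKO) at 48 h, a difference of 0.30 with an adjusted p of 0.256. Psmd7 had 0.49 (0.0852). Psmd6, Psmd7 and Psmd14 had 0.39, 0.32 and 0.10 without WT 48 h replicate 2.

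The 6 genes of the other caps and their inhibitor had a median of 0.39 at 48 h, and of 0.26 without WT 48 h replicate 2. Among the other caps, Psme1 and Psme4 did not pass the test. Psme1, the alpha subunit of PA28, stood at 264.5 and 244.8 CPM (WT) and 250.8 and 253.2 (dKO) at 24 h and at 201.8 and 150.6 (WT) and 239.5 and 285.8 (dKO) at 48 h. Its log2 fold change at 48 h was 0.58 ± 0.181 (SE, adjusted p 0.0671, edgeR), and 0.39 without WT 48 h replicate 2. Psme4, the PA200 cap of the nucleus, stood at 47.78 and 48.03 (WT) and 50.10 and 54.28 (dKO) at 24 h and at 43.22 and 71.10 (WT) and 33.94 and 36.12 (dKO) at 48 h. WT 48 h replicate 2 was its highest library and not its lowest. The difference at 48 h was -0.72 ± 0.212 (SE, adjusted p 0.0559, edgeR), and without WT 48 h replicate 2 it was -0.29 with an adjusted p of 0.208.

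All 7 assembly genes had differences above 0 at 48 h, with a median of 0.38, and 1 (Psmg3) passed the test. Without WT 48 h replicate 2, 6 of the 7 were above 0, the lowest was -0.07 and the median was 0.12. The 4 core chaperones Psmg1 to Psmg4 had a median of 0.76 (0.29 to 0.81) and the 3 base chaperones Psmd5, Psmd9 and Psmd10 one of 0.24 (0.22 to 0.38). These ranges overlap and the difference between the sets was not tested. The medians became 0.37 and 0.10 without WT 48 h replicate 2. The core chaperones summed to 270.9 and 286.2 CPM in WT and 298.8 and 313.8 in dKO at 24 h, and to 273.5 and 154.8 against 330.3 and 350.1 at 48 h. Psmg1 stood at 71.66 and 78.72 (WT) and 78.21 and 78.44 (dKO) at 24 h and at 90.04 and 45.71 (WT) and 107.0 and 118.0 (dKO) at 48 h. Psmg2, its partner in a heterodimer, stood at 87.40 and 103.7 (WT) and 97.90 and 100.4 (dKO) at 24 h and at 70.39 and 37.76 (WT) and 89.91 and 96.27 (dKO) at 48 h. Psmg2 had the widest range of the 46 genes and the largest positive difference at 48 h, 0.81 ± 0.249 (SE), which did not pass (adjusted p 0.0649, edgeR). Psmg1 had 0.33 and Psmg2 0.41 without WT 48 h replicate 2.

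Leaving out WT 48 h replicate 2 lowered the 48 h differences and kept their sign for most genes. The median over the 46 went from 0.46 to 0.26 and that of the 14 standard core genes from 0.56 to 0.30, with 40 of 46 and 14 of 14 above 0. The 3 genes called with all 8 libraries had differences of 0.53 (Psma5), 0.52 (Psmg3) and 0.46 (Psme2b) without it. The fit without replicate 2 has 1 WT library at 48 h, which is assumed to vary like the other groups. Without WT 48 h replicate 1 the median was 0.66, with 38 genes higher and 2 lower (Psmd2 and Psme4), where 23.3% of all genes tested in that fit were called higher and 25.9% lower. Without any 1 of the other 6 libraries, 0 members were called, and the share of all genes called higher fell from 3.19% to between 0.0978% and 1.27%.

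**Figure D4:**
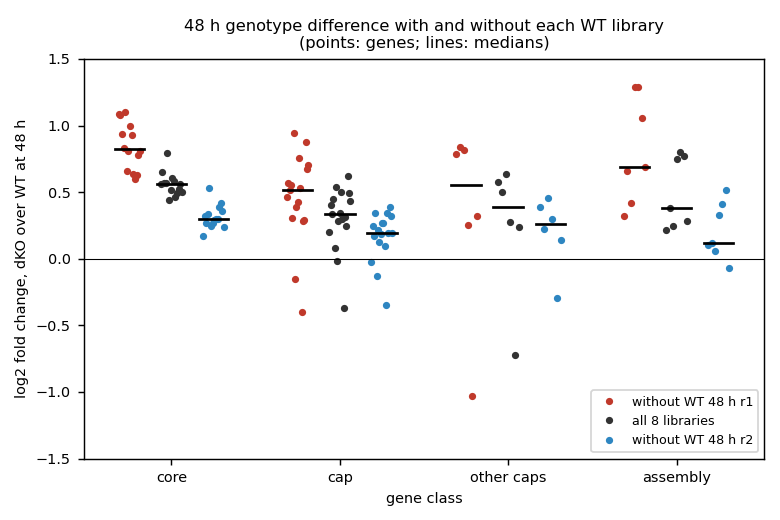
Log2 fold change of dKO over WT at 48 h (vertical axis) by class, with all 8 libraries (black) and without WT 48 h replicate 1 (red) or replicate 2 (blue); points are genes, lines are medians, and Psmb11 is left out. For the 14 standard core genes the median is 0.56 with all libraries and 0.30 without replicate 2, and all 14 stay above 0.

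Other settings moved the 48 h count over a wide range. DESeq2 called 10 members higher, and 1.58% of all genes it was run on. Scaling by library size alone, which moved the median of all genes from -0.03 to 0.15, called 29 members higher, with 12.7% of all tested genes higher and 7.19% lower. A fit on the 48 h libraries alone called 0 members, and 0.379% of all genes higher and 3.28% lower. The 3 genes were among those called by DESeq2 and with library size alone.

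Over both times, 1 member, Psmg3, was called higher in dKO (0.49 ± 0.131, SE, adjusted p 0.0498, edgeR) and 0 lower, against 2.28% and 5.52% of all tested genes. The call is lost with DESeq2's size factors (adjusted p 0.0535, edgeR) and with a mean of at least 50 counts (0.0571). It is also lost with the replicate number as a block. The median over the 46 was 0.29. This median was 0.37 without WT 48 h replicate 1 and 0.19 without replicate 2. The call of Psmg3 was lost without any 1 of the other libraries. Whether the genotype difference changed with time was tested by the interaction, which called 0 members and 0 of all tested genes (0% higher and 0% lower) in edgeR. At an unadjusted p below 0.05, 3 members were higher (Psma5, Psme1 and Psme2b) and 2 lower (Psmb11 and Psme4). The same held for 3.42% and 8.94% of all tested genes. DESeq2 called 0 members in the interaction. The larger differences at 48 h than at 24 h were therefore not shown to be a change with time. The median of the interaction over the 46 was 0.32 with all 8 libraries. It was 0.55 without WT 48 h replicate 1 and 0.13 without replicate 2.

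The course from 24 to 48 h was tested within each genotype label. These comparisons share libraries with the genotype comparisons, so they are not independent of them. In WT, 0 members rose and 1 fell, against 7.87% and 3.5% of all tested genes. The gene was Psmc3ip, the meiotic cofactor that is no proteasome gene: it went from 31.62 and 29.81 to 21.53 and 17.69 CPM, -0.66 ± 0.169 (SE, adjusted p 0.0329, edgeR). In dKO it went from 37.19 and 36.62 to 27.39 and 22.87 CPM, -0.56 with an adjusted p of 0.104. DESeq2 called Psmg2 in place of Psmc3ip in WT, and library size alone called 19 members lower, where it called 5.69% of all tested genes higher and 20.7% lower. The median over the 46 in WT was -0.10, and 13 of 14 standard core genes were below 0. Without WT 48 h replicate 2 it was 0.00, 8 of the 14 were above 0, and 3 ATPases of the base (Psmc1, Psmc5 and Psmc6) were called higher and Psmc3ip and Psmg2 lower, with 13.6% and 8.94% of all genes in that fit. Without replicate 1 it was -0.33, with 2 called higher and 19 lower, and 17.2% and 14.6% of all genes. Without any 1 of the other 6 libraries 0 were called, where 3.73% to 5.95% of all genes were called higher and 0.763% to 2.05% lower.

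In dKO, 0 members were called in either direction by edgeR, against 1.76% higher and 1.88% lower of all tested genes. At an unadjusted p below 0.05, 3 were higher (Psmc1, Psmd6 and Psmd7) and 2 lower (Psmc3ip and Psme4), where 11.1% and 12.2% of all tested genes were, and DESeq2 called 0. The differences leaned upward: 38 of 46 were above 0, with a median of 0.17, of 0.27 for the 14 standard core genes and of 0.22 for the cap. Both 48 h libraries were above both 24 h libraries for 32 of 46 genes (69.6%, against 32.8% of all tested genes). A fit on the dKO libraries alone called 20 members higher and 3 lower, where 19.6% of the genes in that fit were called higher and 17.7% lower. With library size alone the median over the 46 was 0.00, as that scaling moved the median of all genes from -0.01 to -0.18. Psmc1, an ATPase of the base, was the largest: it went from 118.2 and 122.3 to 175.7 and 188.5 CPM in dKO, 0.60 ± 0.178 (SE, adjusted p 0.101, edgeR), and from 115.8 and 111.5 to 186.1 and 131.1 in WT.

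Ratios within a library do not depend on its scaling. The ratio of Psmg2 to Psmg1, the members of 1 heterodimer, was 1.22 and 1.32 in WT and 1.25 and 1.28 in dKO at 24 h, and 0.782 and 0.826 in WT and 0.840 and 0.816 in dKO at 48 h. All 4 libraries at 48 h were below all 4 at 24 h, WT 48 h replicate 2 included. This pair was chosen after its values were seen, so it was not tested.

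The ratio of Psmb8, the immunoproteasome subunit, to Psmb5, which it replaces, was 1.39 and 1.26 in WT and 0.938 and 1.07 in dKO at 24 h. At 48 h it was 1.67 and 1.70 in WT and 1.72 and 1.72 in dKO. The ratio was thus higher at 48 h under both labels, and its lowest values were those of dKO at 24 h. In WT the times overlapped for Psmb9 over Psmb6 (0.612 and 0.497 at 24 h, 0.592 and 0.582 at 48 h). They also overlapped in WT for Psmb10 over Psmb7 (0.29 and 0.202, then 0.269 and 0.354). In dKO both ratios were higher at 48 h (0.628 and 0.604, 0.341 and 0.301) than at 24 h (0.418 and 0.479, 0.197 and 0.251). None of these ratios was tested.

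**Figure D5:**
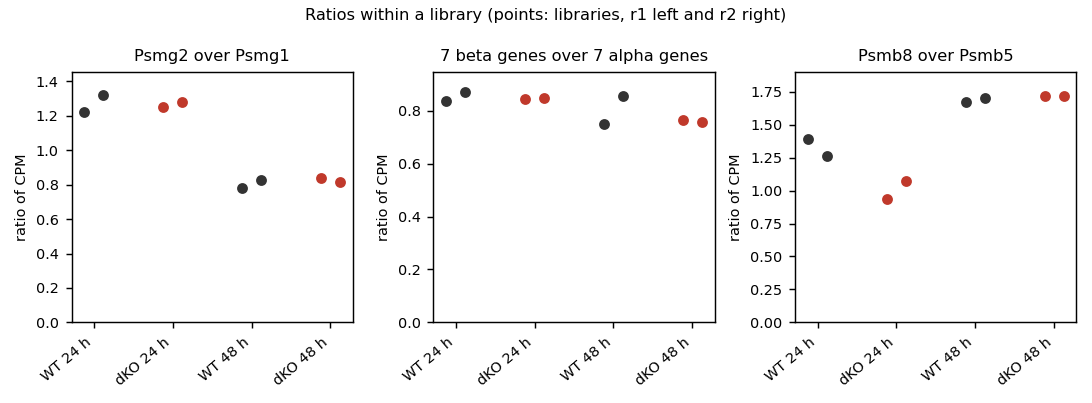
Ratio of CPM within each library (vertical axes start at 0; black, WT; red, dKO). Psmg2 over Psmg1 is 1.22 to 1.32 in the 24 h libraries and 0.782 to 0.840 in the 48 h libraries; Psmb8 over Psmb5 is lowest in dKO at 24 h (0.938 and 1.07) and 1.67 to 1.72 in all 48 h libraries.

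The genes that work with the proteasome were read from a list of 36 symbols, 34 of them in the table and all 34 tested. The list holds the immunoproteasome, ubiquitin genes, shuttle receptors, the p97 unfoldase and the factors that drive proteasome genes, with a few genes under both an older and a newer symbol. At 48 h 2 of the 34 were called higher in dKO and 2 lower, close to the 3.19% and 8.04% of all tested genes, and the median was 0.14. Psmb8 stood at 400.5 and 349.3 CPM in WT against 549.2 and 548.5 in dKO (0.55, adjusted p 0.0498, edgeR) and Psmb9 at 118.6 and 85.79 against 154.5 and 160.1 (0.63, 0.0499). Psmb10 stood at 56.38 and 49.13 against 82.17 and 75.61 and did not pass (0.59, 0.0522). None of the 3 passed without WT 48 h replicate 2 (0.46, 0.42 and 0.49, with adjusted p 0.0672, 0.0807 and 0.0784 in edgeR). Of the 8 fits that leave out 1 library, Psmb8 passed in 3 and Psmb9 in 1. Psmb8 also rose from 24 to 48 h in dKO, from 273.0 and 281.2 CPM (0.99 ± 0.157, SE, adjusted p 0.0101, edgeR), a call lost without any 1 of the 4 dKO libraries (adjusted p 0.131 to 0.199). Pomp, the chaperone that completes the core, stood at 258.5 and 137.8 CPM in WT against 275.7 and 296.5 in dKO at 48 h (0.54, adjusted p 0.169, and 0.16 without WT 48 h replicate 2).

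The genes called lower in dKO at 48 h were Zfand2a and Ubqln2. Their chromosomes were not looked up, and the WT and dKO libraries also differ in sex, so X-linked genes among them are not marked. Zfand2a, a ubiquitin-binding partner of the proteasome induced by arsenite and heat shock, stood at 897.9 and 567.4 CPM in WT and 609.6 and 588.5 in dKO at 24 h, and at 2052 and 2059 in WT against 965.5 and 931.1 in dKO at 48 h. Its log2 fold change at 48 h was -1.12 ± 0.227 (SE, adjusted p 0.0166, edgeR), and in WT it rose from 24 to 48 h by 1.49 (adjusted p 0.00266). Ubqln2, a shuttle that carries ubiquitinated proteins to the proteasome, stood at 34.43 and 37.89 (WT) and 28.11 and 29.93 (dKO) at 24 h and at 50.23 and 68.67 (WT) against 28.28 and 26.76 (dKO) at 48 h, -1.12 ± 0.175 (SE, adjusted p 0.0141, edgeR). Ubqln2 too rose in WT with time (0.73, adjusted p 0.0234), and both genes were called lower in dKO over both times. Without WT 48 h replicate 2 the 48 h differences were -1.105 (Zfand2a) and -0.86 (Ubqln2), with adjusted p 0.00599 and 0.00363 in edgeR. Without dKO 48 h replicate 1 or 2 neither passed (adjusted p 0.137 to 0.191), and without dKO 24 h replicate 1 or 2 Zfand2a did not (0.0542). The rise of Zfand2a in WT was called in all 8 such fits, and that of Ubqln2 in 2, those without WT 48 h replicate 1 or 2. Over both times Zfand2a was called in 4 of the 8 and Ubqln2 in 3. No gene of the list was called at 24 h or in the interaction by edgeR.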

How the data were processed

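Bulk RNA of 8 libraries was analysed, 2 in each of 4 groups taken from the sample titles. The deposited values are whole-number read counts for each gene symbol, made by the authors. The submitters' processing notes name cutadapt 1.18, Bowtie2 2.2.5 and the mm10 build. How reads were counted (program, annotation, strand, molecular identifiers) is not given in the sources used. The table's name points to 5′ reads. An unnamed entry equal to the column totals (50% of each column sum) was left out. Quasi-likelihood tests (edgeR 4.0.16, R 4.3.3) used 1 fit with a mean per group, filterByExpr (minimum count 10, 12742 genes kept), TMM scaling and Benjamini-Hochberg adjustment over all genes tested. Calls were two-sided at an adjusted p below 0.05. SEs were taken as the size of the log2 fold change divided by the root of F. CPM of single genes and sums is TMM-scaled, and that of markers, Nr4a1, Nr4a2, Xist and Y-linked genes is over total counts. DESeq2 1.42.0, other scalings, filters and fits, and fits without each library were alternatives. The scripts were tested on simulated data. Positions are from GENCODE M21.

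Members, lists and motifs were chosen with earlier results of these data known. Values in every library were given for members called between genotypes, for those with the smallest p per class over both times or in a time comparison, and for the widest and narrowest range. Psma3, Psme2, Psmc6, Psmd4, Psmc3ip and the ratios were named after their values were seen. The main fit did not pair libraries by replicate number. Same-numbered deviations correlated between -0.076 and 0.172 over genes. Whether same-numbered libraries share a mouse or culture was not tested. Intervals of counting error are not given, since tests rest on replicates. Results of some single genes are left out of the text.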

Additional observations from a re-analysis of the deposited data

How the results depend on the processing

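Counts of members called are given as higher and lower. With no filter on low counts, 4.09% and 8.8% of all genes were called at 48 h between genotypes, and 3.16% and 6.69% over both times. In WT with time that setting called 6.13% and 2.5% of all genes. Over both times DESeq2 called 1.07% and 2.58% of all genes, and library size alone 5.34% and 4.79%. At 48 h between genotypes (3 and 0), the count was 10 higher with DESeq2, 29 with library size alone, 15 and 1 with no filter on low counts, 0 with only the compared groups, and 0 to 38 higher and 0 to 2 lower leaving out 1 library. Over both times (1 and 0) it was 2 with DESeq2, 0 with DESeq2's size factors, 6 with library size alone, 7 with no filter, 0 with a mean of at least 50 counts, and 0 to 37 and 0 to 1 leaving out 1 library. The interaction (0 and 0) gave 0 to 26 and 0 to 1 leaving out 1 library. WT with time (0 and 1) gave 19 lower with library size alone, 2 lower with no filter, 0 with only the compared groups, and 0 to 3 higher and 0 to 19 lower leaving out 1 library. That scaling moved the median of all genes from 0.00 to -0.36. dKO with time (0 and 0) gave 2 higher with no filter, 20 and 3 with only the compared groups, 1 lower with library size alone, and 0 to 12 and 0 to 2 leaving out 1 library, the highest without either WT 48 h library. In dKO with time, no filter on low counts called 3.83% of all genes higher and 3.35% lower. Library size alone called 1.12% and 4.68% there. The largest counts on leaving out 1 library, over both times, in the interaction and in dKO with time, came without a WT 48 h library. Those fits keep 1 WT library at 48 h. They also called a larger share of all genes, in both directions, than the main fit. Such counts are therefore not particular to proteasome genes. With the replicate number as a block, 3 were called at 48 h and 0 over both times, where 1 was called without the block. At 24 h the count was 0 under each of these settings. The causes were not tested. Depth limits Psma8 and Psmb11, which have few counts.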
